A study of Mus musculus with 6 samples.

Results

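The unfolded protein response and the response to amino acid shortage were followed across 42 named genes: their transcription factors, ATF4-linked regulators, enzymes of amino acid and one-carbon synthesis, tRNA synthetases, chaperones of the endoplasmic reticulum (ER) and genes of ER-associated degradation. The genes were chosen by name, with earlier results of these data known. Each was read at the probe set with the highest mean intensity among those paired with that gene alone. Of the 42 genes, 41 were found among the 18193 genes of the array. Pycr1 was not analysed here. A level filter at the 40th percentile of gene means, an intensity of 39.8, was passed by 40 of them. Cbs, which encodes cystathionine beta-synthase, lay below it in most arrays, with intensities of 35.9, 38 and 42.2 in mutant cells, against 28.9, 40.6 and 38.5 in wild-type cells at 0, 60 and 120 minutes, and was not tested. The measurements were 6 Affymetrix expression arrays of NIH3T3, an immortal fibroblast line derived from mouse embryos. Cells with mutant LPAR1 had 1 array at 0, 1 at 60 and 1 at 120 minutes, and cells with wild-type LPAR1 had the same. LPAR1 sits in the cell membrane, binds lysophosphatidic acid, a growth-promoting lipid of serum, and signals through G proteins. The labels do not name the mutation, the treatment that starts the clock, or the number of cultures or clones, so p-values measure only the spread between these arrays, which may be technical.

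In both responses, stress leads to phosphorylation of the translation factor eIF2, by PERK when unfolded proteins gather in the ER and by GCN2 when amino acids run short. Most translation then slows, while the mRNA of the transcription factor ATF4 is translated more, and ATF4 raises genes of amino acid synthesis, amino acid transport and tRNA charging. The ER sensors IRE1 and ATF6 act beside PERK: IRE1 splices the mRNA of XBP1, and cleaved ATF6 enters the nucleus, and both pathways raise ER chaperones and degradation factors. In fibroblasts these pathways serve the steady secretion of collagen and other matrix proteins.

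The 6 arrays had mean intensities of 299 to 308, and 11 of 12 fibroblast markers passed the level filter, with Lum below it. The leukocyte marker Ptprc (mean intensity 17.9) and the endothelial marker Pecam1 (4.37) were below it. Among epithelial markers, Epcam, Cdh1 and Krt14 passed the filter and Krt8, Krt18 and Cldn4 did not. Some marker levels moved with genotype: the summed intensity of 4 endothelial markers was 95.0 to 111 in mutant and 51.2 to 65.6 in wild-type cells, with Cdh5 alone above the filter, and that of 4 leukocyte markers, with Cd14 alone above it, was 237 to 254 in mutant and 279 to 319 in wild-type cells. The summed epithelial markers (1348 to 1667 in mutant, 1421 to 1613 in wild-type cells) overlapped between genotypes. So did the summed fibroblast markers, but not each of them singly: Col1a1 was 2334 to 2411 in mutant and 3059 to 3519.8 in wild-type cells, and Col3a1 9361 to 9500.2 in mutant and 8111 to 8531 in wild-type cells. The part of other cells in the genotype differences below was not tested. Lpar1 itself had intensities of 1496, 1514 and 1438 in mutant cells, against 1335, 1289.8 and 1289 in wild-type cells, and its probe set was not shown to detect an introduced receptor. Actb control probe sets compare signal near the 5' end of the transcript with that near its 3' end, which drops when RNA is broken or copied short. Their ratio at 0, 60 and 120 minutes was 0.505, 0.683 and 0.661 in mutant cells, against 0.579, 0.650 and 0.699 in wild-type cells, so it was lowest at 0 minutes in both. For Gapdh this ratio stayed within 0.954 to 1.03. The part of RNA quality in the time differences below was not tested.

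Promoter windows of RefSeq, which run from 250 bases before to 50 after the gene start in assembly GRCm38.p6, were present for 35 of the 41 genes. Each window was searched on both strands for 5 motifs known from these pathways. The ATF4 composite element (CARE, searched as TGATGNAA) was found in 10 of the 35 genes, against 3.97% of all 32851 windows. The ER stress element (ERSE, searched as CCAAT and CCACG with 9 bases of any kind between them), which ATF6 and XBP1 are known to use, was found in 6 of the 35 genes, against 0.119% of windows. The second ER stress element (ERSE-II, ATTGG and CCACG with 1 base of any kind between them) was found in Herpud1 and in 0.0365% of windows. The unfolded protein response element (TGACGTGG) was found in none of the 35 and in 0.676% of windows, and the cyclic AMP element (TGACGTCA) in Ppp1r15a and in 1.79% of windows. Motifs of different kinds did not overlap in these genes. The genes were listed as members of these pathways and the motifs are known from them, so the higher shares are no independent finding. The 35 were counted as genes and the background as single windows.

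CARE lay in the windows of Chac1, Trib3, Nupr1, Vldlr, Asns, Herpud1, Aars, Gars, Tars and Yars. ERSE lay in those of the chaperones and folding enzymes Hspa5, Hsp90b1, Dnajc3, Pdia6, Calr and Creld2. Of these, 6 windows are shown because results below turn on their genes, with the motif in capitals, read 5′ to 3′ along the gene. Chac1 (chr2:119350992-119351291 on the + strand), Trib3 (chr2:152344011-152344310 on the - strand) and Nupr1 (chr7:126625421-126625720 on the - strand) hold CARE in its reverse orientation. Herpud1 (chr8:94386179-94386478 on the + strand) holds CARE and, nearer its start, ERSE-II. Hspa5 (chr2:34771840-34772139 on the + strand) and Pdia6 (chr12:17266339-17266638 on the + strand) hold ERSE. A match of letters is a description and no measurement of binding.
Chac1: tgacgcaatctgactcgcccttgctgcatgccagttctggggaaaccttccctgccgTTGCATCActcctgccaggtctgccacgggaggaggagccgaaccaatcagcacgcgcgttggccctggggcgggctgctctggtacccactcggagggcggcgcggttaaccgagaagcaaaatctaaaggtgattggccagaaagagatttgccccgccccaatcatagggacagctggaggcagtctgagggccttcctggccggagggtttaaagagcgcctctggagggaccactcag
Trib3: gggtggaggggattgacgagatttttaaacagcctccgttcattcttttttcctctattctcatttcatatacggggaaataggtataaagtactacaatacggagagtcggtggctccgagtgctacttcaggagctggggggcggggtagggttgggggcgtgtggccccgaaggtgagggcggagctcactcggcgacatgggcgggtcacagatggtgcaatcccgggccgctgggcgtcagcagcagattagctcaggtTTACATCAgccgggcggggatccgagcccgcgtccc
Nupr1: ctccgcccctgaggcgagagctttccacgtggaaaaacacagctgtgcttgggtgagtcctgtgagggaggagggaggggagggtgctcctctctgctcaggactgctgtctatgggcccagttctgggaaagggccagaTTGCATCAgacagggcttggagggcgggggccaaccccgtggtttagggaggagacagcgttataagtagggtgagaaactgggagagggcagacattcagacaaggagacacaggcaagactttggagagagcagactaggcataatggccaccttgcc
Herpud1: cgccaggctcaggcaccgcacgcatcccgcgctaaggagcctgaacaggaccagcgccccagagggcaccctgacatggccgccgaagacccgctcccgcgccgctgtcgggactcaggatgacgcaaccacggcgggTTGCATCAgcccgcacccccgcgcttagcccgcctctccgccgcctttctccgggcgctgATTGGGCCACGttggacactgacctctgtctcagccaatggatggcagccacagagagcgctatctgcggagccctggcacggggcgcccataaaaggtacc
Hspa5: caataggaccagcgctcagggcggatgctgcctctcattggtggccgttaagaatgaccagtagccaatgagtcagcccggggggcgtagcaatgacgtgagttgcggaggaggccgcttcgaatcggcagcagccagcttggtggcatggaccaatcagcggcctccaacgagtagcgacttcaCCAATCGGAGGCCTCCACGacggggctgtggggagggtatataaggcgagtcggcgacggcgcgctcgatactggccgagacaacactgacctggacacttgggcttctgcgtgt
Pdia6: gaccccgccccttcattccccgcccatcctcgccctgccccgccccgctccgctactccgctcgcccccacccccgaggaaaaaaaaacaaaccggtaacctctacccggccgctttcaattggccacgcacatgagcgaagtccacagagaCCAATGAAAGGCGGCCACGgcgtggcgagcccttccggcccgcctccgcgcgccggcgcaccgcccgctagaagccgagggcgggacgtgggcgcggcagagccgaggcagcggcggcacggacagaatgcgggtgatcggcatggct

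**Figure D1:**
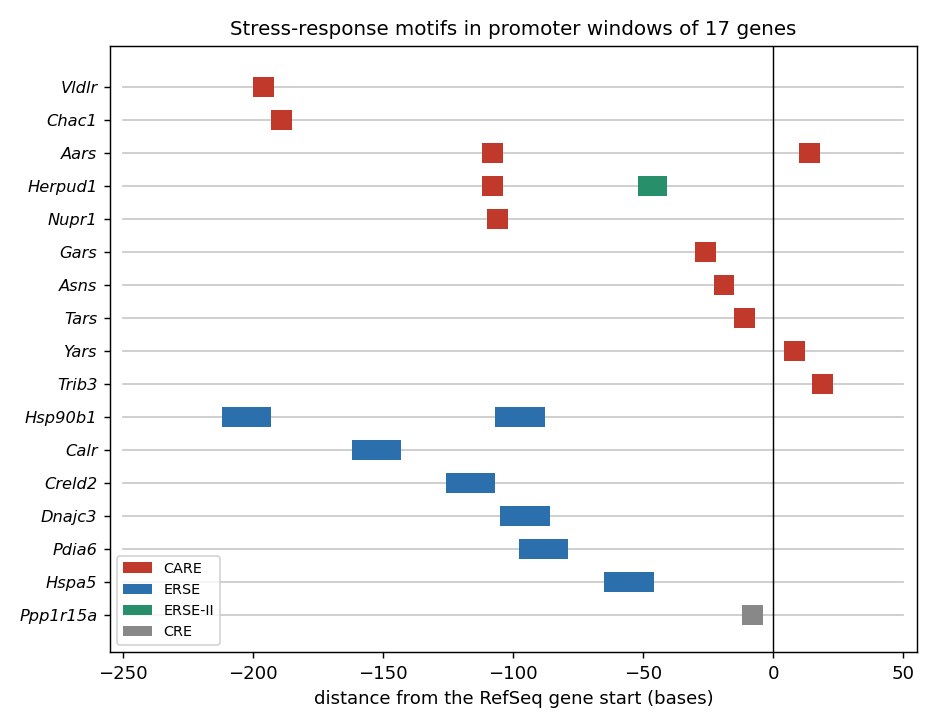
Positions of the motifs in the promoter windows of the 17 genes that hold at least 1, in bases from the RefSeq gene start (grey lines, the windows searched). CARE (red) lay from 200 bases before the start, in Vldlr, to 22 after it, in Trib3; the ERSE matches (blue) lay between 212 and 47 bases before the start.

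Genotype was compared first. Many stress-response genes were lower in cells with mutant LPAR1, by small amounts. Of the 40 tested genes, 20 were lower and 2 higher, against 9.0% of 10916 genes tested lower and 10.5% higher (19.5% in either direction). The median log2 difference was -0.15 over the 40 genes and 0.015 over all genes tested. The lower genes came from every role: 3 of 6 transcription factors, 4 of 5 ATF4-linked regulators, 5 of 8 enzymes, 3 of 9 tRNA synthetases, 4 of 10 chaperones and folding enzymes, and 1 of both degradation genes. At all 3 times 25 of the 40 genes were lower in the mutant array, against 23.0% of genes tested, and 3 were higher at all times, against 28.4%. For 13 of the 40 every mutant array lay below every wild-type array, against 7.69% of genes tested, and for 2 every mutant array lay above, against 9.07%. These values come from an additive fit of genotype and time in limma, on log2(intensity + 16). When time was left out of that fit, 1 gene, Cth, was lower. When either 0 minute array was left out 11 genes were lower.

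The largest difference was in Cth, cystathionine gamma-lyase, which releases cysteine in the last step of the transsulfuration pathway. Its intensities at 0, 60 and 120 minutes were 155, 189 and 156 in mutant cells, against 275, 311 and 340.2 in wild-type cells. Every mutant array lay below every wild-type array, and the gap was widest at 120 minutes. The mean was 167 ± 19.5 in mutant and 309 ± 32.6 in wild-type cells (SD over the 3 times, n = 3 arrays each, 1 per time). The level was 1.78-fold lower in mutant cells on the log2(intensity + 16) scale (log2 -0.83 ± 0.08, SE, adjusted p = 0.000132 in limma). All folds here are given on that scale, which understates those of dim genes. In such bulk samples a lower level per cell and fewer cells with the transcript cannot be told apart.

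Among the transcription factors, Atf5, an ATF4 relative that is itself translated under stress, had intensities of 1530.3, 1219.8 and 903 in mutant cells, against 1849, 1595 and 1196 in wild-type cells. It was lower in mutant cells at each time, and the ranges of the genotypes overlapped across times (log2 -0.35 ± 0.048, SE; adjusted p = 0.00105). Nupr1, a small stress-induced nuclear protein, had 2144, 2916 and 1438 in mutant cells, against 2937, 3259.7 and 1854 in wild-type cells. It too was lower at each time (log2 -0.32 ± 0.056, SE; adjusted p = 0.00392). Atf4 had 2670.3, 2658 and 1704 in mutant cells, against 3087, 2760.1 and 2142 in wild-type cells. Its mutant array was lower at each time, by only -0.054 on the log2 scale at 60 minutes (log2 -0.20 ± 0.054, SE; adjusted p = 0.0308). The Atf4 call did not survive the omission of the mutant (adjusted p = 0.0564) or wild-type array (0.0592) of 0 minutes, nor that of the mutant (0.123) or wild-type array (0.124) of 120 minutes. It was also lost when all Atf4 probe sets were averaged. Another Atf4 probe set, of mean intensity 33.7 and so below the filter, had -0.094 (and -0.24 for 120 against 60 minutes, where the set used had -0.50 ± 0.066).

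Ddit3 went the other way. The gene encodes CHOP, a factor that promotes death of stressed cells and is a classical target of ATF4. It had 1856, 1376 and 635 in mutant cells, against 1683, 1208 and 564 in wild-type cells, higher in the mutant array at each time (log2 0.16 ± 0.046, SE; adjusted p = 0.0336). A dimmer Ddit3 probe set had a log2 difference of -0.081, the opposite sign, and the call was lost when any 1 of the 6 arrays was left out (adjusted p = 0.0655 to 0.132). Atf6 had 169.7, 154 and 175 in mutant cells, against 195, 179 and 179 in wild-type cells. The genotypes did not overlap, and its log2 difference of -0.14 ± 0.07 did not pass (adjusted p = 0.201 in limma). Its dimmest probe set went the other way, with 88, 89.5 and 118 in mutant cells, against 80.5, 72 and 84.1 in wild-type cells. The remaining Atf6 probe set was lower in the mutant array at 60 minutes only. Averaged over all its probe sets, the difference was 0.068 ± 0.062. For Xbp1 the difference was -0.022 ± 0.068 (adjusted p = 0.862), and spliced and unspliced forms were not told apart.

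Of the 5 ATF4-linked regulators and receptors 4 were lower and none was higher, against 9.0% and 10.5% of all genes tested. The counts were the same at an unadjusted p under 0.05 in limma, against 1632 lower and 2031 higher of 10916 genes tested. Chac1, an enzyme that breaks down glutathione, had 687, 2230.0 and 613 in mutant cells, against 944, 3014 and 860.5 in wild-type cells. The mutant array was lower by nearly the same log2 amount at each time, -0.45, -0.43 and -0.48 (log2 -0.45 ± 0.046, SE; adjusted p = 0.000171). Vldlr, a receptor for very-low-density lipoprotein, had 248, 249 and 202 in mutant cells, against 352, 332 and 292 in wild-type cells. All its mutant arrays lay below all its wild-type arrays (log2 -0.46 ± 0.061, SE; adjusted p = 0.000934). Another Vldlr probe set, far below the filter (mean intensity 11.5), had -0.0089. Trib3, a pseudokinase that dampens ATF4 activity and AKT signalling, differed by -0.29 ± 0.06 (adjusted p = 0.00965). Ppp1r15a, the phosphatase subunit that restores eIF2 to its active form, differed by -0.22 ± 0.063 (adjusted p = 0.0334), a call lost without any 1 of the 6 arrays (adjusted p = 0.0801 to 0.115). Sesn2, a leucine sensor that restrains mTORC1, was at -0.16 ± 0.077 and did not pass (adjusted p = 0.183).

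**Figure D2:**
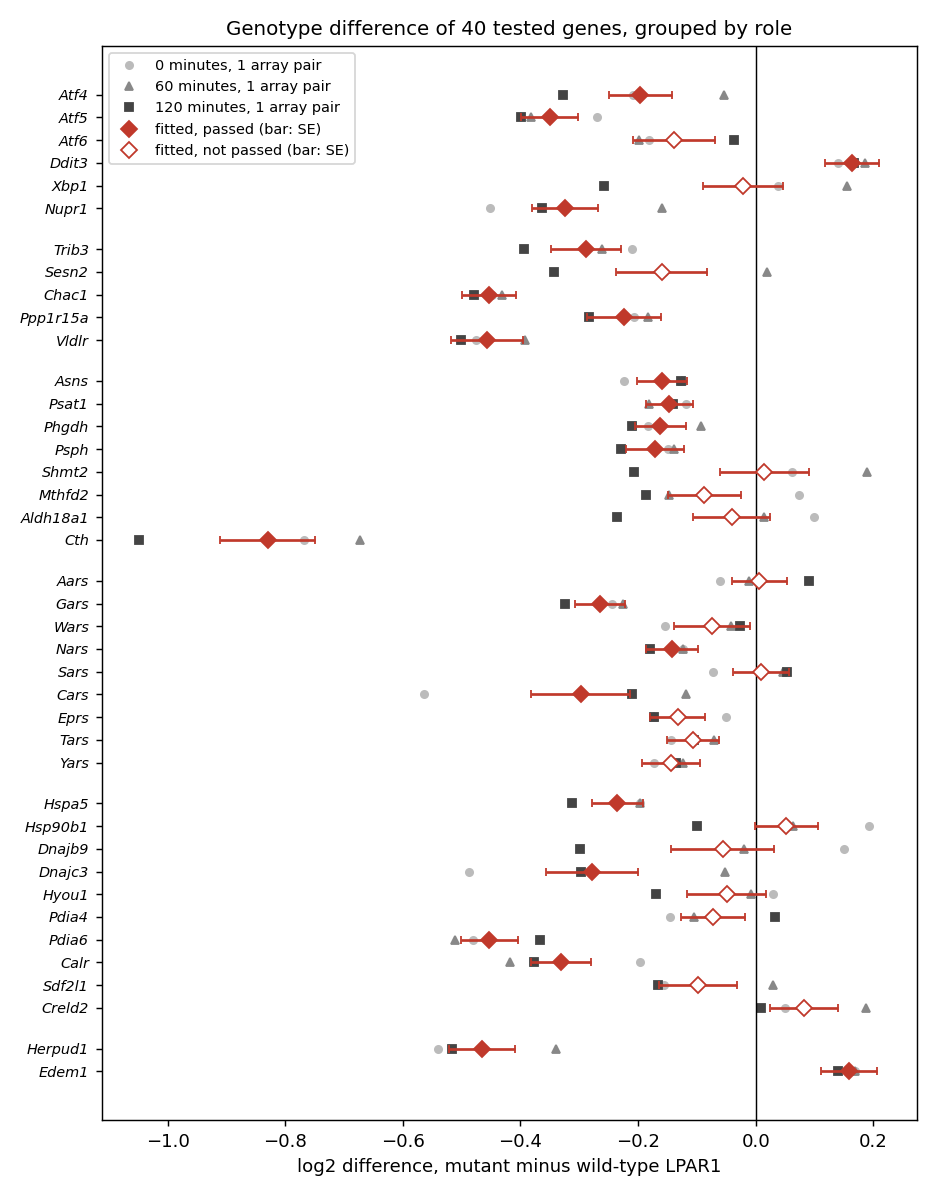
Log2 difference of mutant minus wild-type LPAR1 cells (x axis) for the 40 tested genes, grouped by role in the order transcription factors, ATF4-linked genes, enzymes, tRNA synthetases, chaperones, degradation genes. Grey symbols are single array pairs at 0, 60 and 120 minutes and diamonds the fitted difference with its SE, filled where it passed; 20 filled diamonds lie left of 0 and 2, Ddit3 and Edem1, right of it.

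Serine synthesis runs through Phgdh, Psat1 and Psph in that order, and all of them were called lower in mutant cells by similar small amounts. Phgdh had 2394, 2408 and 2232 in mutant cells, against 2719.9, 2570.3 and 2585 in wild-type cells, with no overlap between genotypes (log2 -0.16 ± 0.043, SE; adjusted p = 0.0276). Psat1 differed by -0.15 ± 0.04 (adjusted p = 0.0298) and Psph by -0.17 ± 0.049 (0.0367). Asns, which makes asparagine, had 2339, 2638 and 2671 in mutant cells, against 2737, 2878 and 2920.0 in wild-type cells, also with no overlap (log2 -0.16 ± 0.042, SE; adjusted p = 0.0275). These calls were fragile. Leaving out any 1 array lost those of Psat1 (adjusted p = 0.0601 to 0.144) and Psph (0.0774 to 0.12). The call of Phgdh was lost without either array of 0 minutes (0.0973 without the mutant, 0.101 without the wild-type array) or of 120 minutes (0.0912 and 0.092). That of Asns was lost without either array of 0 (0.155 and 0.16) or 60 minutes (0.0573 and 0.0578). The mitochondrial one-carbon enzymes Shmt2 (0.015 ± 0.076; adjusted p = 0.917) and Mthfd2 (-0.087 ± 0.062; 0.365) and the proline synthesis enzyme Aldh18a1 (-0.041 ± 0.065; 0.713) did not pass.

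The tRNA synthetases load amino acids onto their tRNAs. Gars, for glycine, had 2168, 2273 and 2229 in mutant cells, against 2572, 2661 and 2796 in wild-type cells, and every mutant array lay below every wild-type array (log2 -0.27 ± 0.043, SE; adjusted p = 0.00262). Cars, for cysteine, had 261, 334 and 345 in mutant cells, against 394, 364 and 402 in wild-type cells. Its gap was largest at 0 minutes, where the log2 difference was -0.56, against -0.12 at 60 and -0.21 at 120 minutes (log2 -0.30 ± 0.083, SE; adjusted p = 0.0334). The Cars call was lost without either 0 minute array (adjusted p = 0.238 without the mutant and 0.246 without the wild-type array) and when its probe sets were averaged, and a Cars probe set below the filter (mean intensity 31.8) had -0.030. Nars, for asparagine, differed by -0.14 ± 0.044 (adjusted p = 0.0486), lost without any 1 array (0.116 to 0.143). Eprs, Tars, Yars and Wars had log2 differences from -0.14 to -0.074, and Aars and Sars 0.0059 ± 0.047 and 0.0092 ± 0.048. None of these passed in limma. At an unadjusted p under 0.05 in limma the 9 synthetases held 6 lower and no higher gene. All 10916 genes tested held 1632 lower and 2031 higher at that threshold.

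Among ER chaperones and folding enzymes, the disulfide isomerase gene Pdia6 had 1173, 1073 and 1161 in mutant cells, against 1643, 1537 and 1502 in wild-type cells. Its highest mutant array was well below its lowest wild-type array, a 1.37-fold difference (log2 -0.45 ± 0.049, SE; adjusted p = 0.000234). Calr, a calcium-binding chaperone for glycoproteins, had 2174, 1849 and 1876 in mutant cells, against 2494, 2477 and 2441 in wild-type cells. Wild-type arrays were nearly level over time, and all mutant arrays lay below them (log2 -0.33 ± 0.051, SE; adjusted p = 0.00217). Hspa5, which encodes BiP, the main ER chaperone and the brake on the stress sensors, had 2188, 2673 and 2847 in mutant cells, against 2509.5, 3064 and 3539 in wild-type cells. It was lower in mutant cells at each time (log2 -0.24 ± 0.043, SE; adjusted p = 0.00523), while its dimmest probe set had 0.023 and the call was lost when all its probe sets were averaged. Dnajc3, a BiP partner that also inhibits PERK, differed by -0.28 ± 0.078 (adjusted p = 0.0333), with the widest gap at 0 minutes, and the call was lost without either 0 minute array (0.2 without the mutant and 0.207 without the wild-type array). The other 6, Hsp90b1, Dnajb9, Hyou1, Pdia4, Sdf2l1 and Creld2, had log2 differences from -0.098 to 0.082 and did not pass.

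Both degradation genes passed, in opposite directions. Herpud1, a membrane protein that organises ER-associated degradation, had 817, 996 and 395 in mutant cells, against 1195, 1265 and 571 in wild-type cells, with lower mutant than wild-type values throughout (log2 -0.47 ± 0.056, SE; adjusted p = 0.000499). Edem1, a lectin that hands misfolded glycoproteins to degradation, had 978, 982 and 912 in mutant cells, against 868, 872 and 826 in wild-type cells, higher at each time (log2 0.16 ± 0.048, SE; adjusted p = 0.0426). The other Edem1 probe set had -0.037, the opposite sign, and the Edem1 call was lost without any 1 of the 6 arrays (adjusted p = 0.0665 to 0.177). Of the 20 lower genes 11 kept their call whichever array was left out: Atf5, Nupr1, Trib3, Chac1, Vldlr, Cth, Gars, Hspa5, Pdia6, Calr and Herpud1.

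Time was compared next, over both genotypes together. Within the first hour Chac1, Sesn2, Ppp1r15a and Nupr1 rose, and by 120 minutes Ddit3, Trib3, Herpud1, Sesn2, Atf5, Nupr1, Ppp1r15a and Atf4 had fallen below their 0 minute level in both genotypes. Hspa5 and Xbp1 had risen by then. At 60 against 0 minutes 6 of the 40 genes rose and 3 fell, against 7.37% and 10.7% of genes tested (18.1% in either direction). At 120 against 0 minutes 7 rose and 12 fell (17.5% and 30%), near the 16.2% and 30.8% of all genes tested (47.1% in either direction). At 120 against 60 minutes 11 fell, against 15.0% of genes tested (25.2% in either direction), and none rose in limma, against 10.2%. At an unadjusted p under 0.05 in limma 4 rose, against 1590 of 10916 genes tested. After quantile normalization 4 passed as higher, and 4 after centring each array, against 1333 and 1672 of all genes tested. Rises of all genes at 120 against 0 minutes made up 34.5% of calls, or 51.6% after each array was centred on its median. For 60 against 0 minutes the same shares were 40.7% and 53.6%, and for 120 against 60 minutes 40.5% and 55.6%. The time comparisons share arrays, each rests on 2 arrays per time, and both genotypes were fitted together.

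A pulse, with a call of higher at 60 than at 0 and of lower at 120 than at 60 minutes, was found in 4 of the 40 genes, against 1.82% of genes tested. Chac1 had the largest. In the intensities given above, the 60 minute array stood far above the other arrays in each genotype. It rose 3.17-fold in the first hour (log2 1.67 ± 0.056, SE; adjusted p = 2.63e-08) and fell 3.51-fold in the second (log2 -1.81 ± 0.056, SE; adjusted p = 5.65e-08). Against 0 minutes its 120 minute level was at -0.15 ± 0.056 (adjusted p = 0.0558). Sesn2 had 234, 419.9 and 115 in mutant cells, against 262, 414 and 150.3 in wild-type cells at 0, 60 and 120 minutes. Its 60 minute arrays were the highest and its 120 minute arrays the lowest in each genotype. It rose 1.64-fold (log2 0.72 ± 0.095, SE; adjusted p = 0.000572), then fell to a level below the start (log2 -0.84 ± 0.095, SE; adjusted p = 6.87e-05, for 120 against 0 minutes).

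Ppp1r15a had 228, 311 and 141 in mutant cells, against 265, 355 and 175 in wild-type cells. It followed the same order in both genotypes, with a rise in the first hour (log2 0.41 ± 0.077, SE; adjusted p = 0.00478) and a 120 minute level below the start (log2 -0.60 ± 0.077, SE; adjusted p = 0.000161). Nupr1 rose in the first hour (log2 0.30 ± 0.069, SE; adjusted p = 0.0153), a call lost without the mutant array of 0 minutes (adjusted p = 0.138) or of 60 minutes (0.18). That call was also lost without the shrinkage trend. Nupr1 rose by 0.44 in mutant and 0.15 in wild-type cells. By 120 minutes it was below its start (log2 -0.61 ± 0.069, SE; adjusted p = 6.49e-05).

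**Figure D3:**
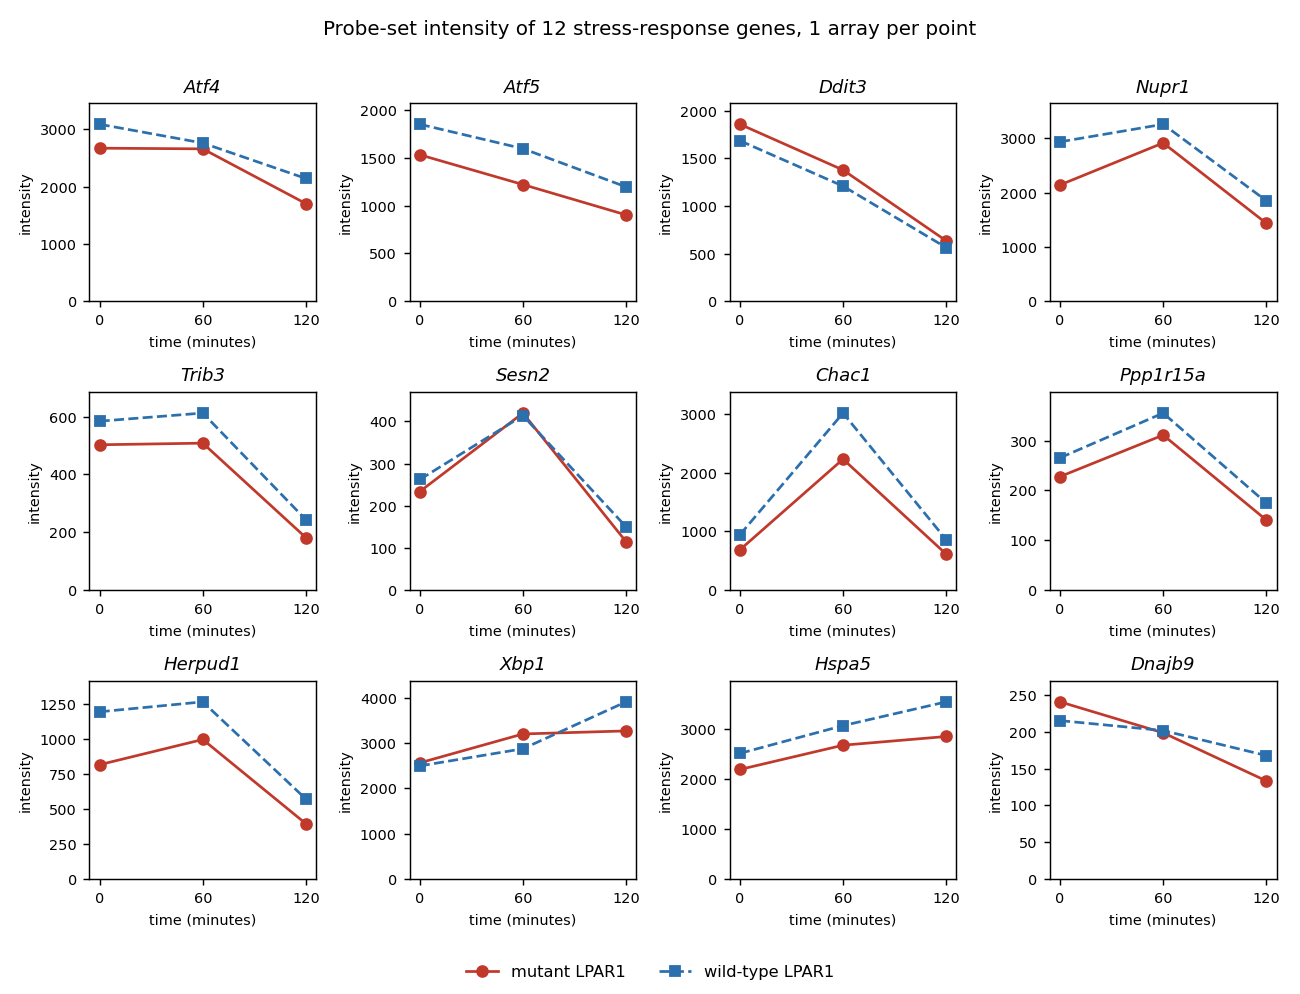
Intensity (y axis, linear, from 0) at 0, 60 and 120 minutes (x axis) of 12 genes in mutant (red circles) and wild-type (blue squares) cells, 1 array per point. Chac1, Sesn2, Ppp1r15a and Nupr1 peak at 60 minutes, Ddit3, Atf5 and Trib3 end below their start, and Xbp1 and Hspa5 end above it in both genotypes.

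Several other genes of the ATF4 arm fell by 120 minutes with no rise before it that passed. Ddit3 fell 2.9-fold over 120 minutes (log2 -1.54 ± 0.057, SE; adjusted p = 4.40e-08), and its fall had begun by 60 minutes (log2 -0.45 ± 0.057, SE; adjusted p = 0.000403). Its 0 minute arrays were the highest and its 120 minute arrays the lowest in both genotypes. Trib3 had 503, 508 and 182 in mutant cells, against 584, 612 and 243 in wild-type cells. Its first-hour difference did not pass (0.041 ± 0.074; adjusted p = 0.735) and fell 2.53-fold in the second (log2 -1.34 ± 0.074, SE; adjusted p = 1.75e-06). Herpud1 kept the same order, at 0.18 ± 0.069 for 60 against 0 minutes (adjusted p = 0.0965) and a 2.32-fold fall in the second hour (log2 -1.21 ± 0.069, SE; adjusted p = 2.10e-06). Atf4 itself fell 1.5-fold by 120 minutes (log2 -0.58 ± 0.066, SE; adjusted p = 6.79e-05) and Atf5 1.61-fold (log2 -0.69 ± 0.059, SE; adjusted p = 1.07e-05). Atf5 had also fallen by 60 minutes (log2 -0.27 ± 0.059, SE, adjusted p = 0.0114 in limma). That call was lost without the mutant array of 0 or of 60 minutes, and without the shrinkage trend. Vldlr fell slightly by 120 minutes (log2 -0.27 ± 0.075, SE; adjusted p = 0.0147), a call lost without the mutant array of 0 (0.0723) or 120 minutes (0.08) or the wild-type array of 0 minutes (0.111), and after centring each array. The dim Vldlr probe set had -0.047. Its fall from 60 to 120 minutes (log2 -0.23 ± 0.075, SE; adjusted p = 0.0495) was lost without any 1 array (0.0683 to 0.29).

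Chaperones and their regulators did not move as a block. Xbp1 had 2561, 3198 and 3265 in mutant cells, against 2493, 2871 and 3906 in wild-type cells. It rose 1.41-fold by 120 minutes (log2 0.50 ± 0.083, SE; adjusted p = 0.000855), with the larger difference in wild-type cells. Hspa5 rose in the first hour (log2 0.29 ± 0.053, SE; adjusted p = 0.0044) and was 1.35-fold above its start at 120 minutes (log2 0.44 ± 0.053, SE; adjusted p = 0.00011). Hyou1, an ER exchange factor for BiP, rose by 0.28 ± 0.083 (adjusted p = 0.0201), a call lost without the wild-type array of 0 (adjusted p = 0.19) or 120 minutes (0.182) and when its probe sets were averaged. A Hyou1 probe set below the filter (mean intensity 11.5) had 0.0040.

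Dnajb9, a BiP cofactor that represses IRE1, had 241, 199 and 133 in mutant cells, against 215, 202 and 168 in wild-type cells. Its 120 minute array was the lowest in each genotype (log2 -0.56 ± 0.11, SE; adjusted p = 0.002). Its fall from 60 to 120 minutes was log2 -0.38 ± 0.11 (SE, adjusted p = 0.0259 in limma). That call was lost without either 60 minute array, without the mutant array of 120 minutes, and without the shrinkage trend. Pdia4, another disulfide isomerase, fell by 60 minutes (log2 -0.29 ± 0.067, SE; adjusted p = 0.0153) and was still lower at 120 minutes (log2 -0.24 ± 0.067, SE; adjusted p = 0.015). The first of these Pdia4 calls was lost without the mutant array of 60 (0.0966) or the wild-type array of 0 minutes (0.159). The second was lost without the wild-type array of 0 (0.167) or 120 minutes (0.147), and after centring each array. Both were lost when the Pdia4 probe sets were averaged, and the 60 minute call also without the shrinkage trend. The other Pdia4 probe set, below the filter (mean intensity 20.4), had -0.12 at 60 and -0.028 at 120 minutes. Hsp90b1, Dnajc3, Pdia6, Calr, Sdf2l1, Creld2 and Edem1 did not pass in any time comparison.

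**Figure D4:**
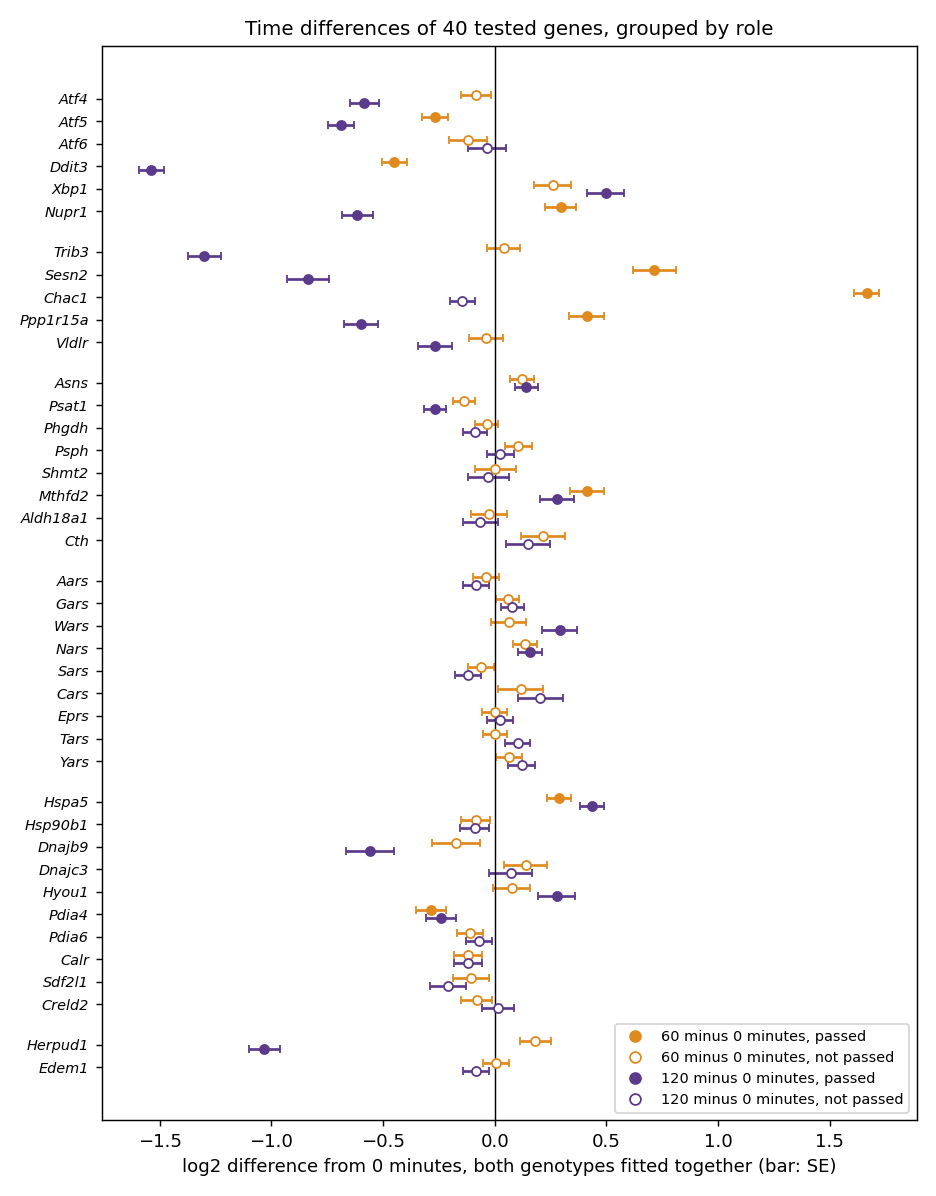
Log2 difference from 0 minutes (x axis, with SE) at 60 minutes (orange) and 120 minutes (purple) for the 40 tested genes, both genotypes fitted together and filled where the test passed. At 120 minutes the filled points of the ATF4-linked genes lie left of 0 and those of Xbp1, Hspa5 and Hyou1 right of it; among enzymes and synthetases the point farthest from 0 is Mthfd2 at 60 minutes, at 0.41.

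Of the 8 tested enzymes 2 rose and 1 fell by 120 minutes (25% and 12.5%, against 16.2% and 30.8% of all genes tested). Mthfd2 had 589.7, 732 and 655 in mutant cells, against 559.8, 812 and 748 in wild-type cells. It rose in the first hour (log2 0.41 ± 0.076, SE; adjusted p = 0.0042) and stayed above its start at 120 minutes (log2 0.28 ± 0.076, SE; adjusted p = 0.0128). The first of these calls was lost without the wild-type array of 0 minutes (adjusted p = 0.0625), and the second without that array (0.232) or the wild-type array of 120 minutes (0.1). Psat1 fell by 120 minutes (log2 -0.27 ± 0.049, SE; adjusted p = 0.00149), in both genotypes. Asns rose by 0.14 ± 0.052 (adjusted p = 0.0468), which was lost without any 1 array (0.0512 to 0.368).

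Of the 9 synthetases 2 rose by 120 minutes (22.2%) and none fell, against 16.2% and 30.8% of all genes tested. None fell at an unadjusted p under 0.05 in limma either, against 3891 of 10916 genes tested. Wars, for tryptophan, rose by 0.29 ± 0.079 (adjusted p = 0.0127) and Nars by 0.16 ± 0.054 (0.0364). Dimmer Wars probe sets had 0.090 and -0.078, and the call was lost without the mutant array of 0 (0.157) or 120 minutes (0.0742) and when its probe sets were averaged. The Nars call was lost without the mutant array of 0 (0.124) or 120 minutes (0.0652) and without the wild-type array of 0 (0.202) or 120 minutes (0.192). None of the 9 passed in the first hour or in the second, against 18.1% and 25.2% of all genes tested. At an unadjusted p under 0.05 in limma 1 was higher in each, against 1144 and 1590 of 10916 genes tested.

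Whether the time course itself differed between genotypes cannot be tested with 1 array per genotype and time, so values alone follow. Over the 40 genes the 60 minute change differed between genotypes, mutant minus wild-type, by a median log2 of 0.044, against 0.023 over all genes tested. For the 120 minute change the median was -0.035, against -0.031. The pulse of Chac1 had nearly the same size in both: 1.68 in mutant and 1.66 in wild-type cells for 60 against 0 minutes. The fall of Ddit3 by 120 minutes was likewise -1.52 in mutant and -1.55 in wild-type cells. The most negative gap was in Dnajb9, whose 120 minute change was -0.78 in mutant and -0.33 in wild-type cells. Cars had the most positive gap at both times, with a 60 minute change of 0.34 in mutant and -0.11 in wild-type cells. The 120 minute change of Xbp1 was 0.35 in mutant and 0.64 in wild-type cells.

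Neighbouring genes of the pathways, also listed with earlier results of these data known, gave a frame for these values. Among 19 tested ATF4-linked genes outside the 42, 8 were lower in mutant cells and none higher, against 9.0% and 10.5% of all genes tested. At an unadjusted p under 0.05 in limma 9 were lower and none higher, against 1632 and 2031 of 10916 genes tested. Slc7a5, which carries large neutral amino acids into cells, had 426, 651 and 703 in mutant cells, against 641, 952 and 1095 in wild-type cells (log2 -0.58 ± 0.051, SE; adjusted p = 7.10e-05). The alanine transaminase gene Gpt2 had 481, 418 and 349 in mutant cells, against 684, 676 and 535 in wild-type cells (log2 -0.59 ± 0.057, SE; adjusted p = 0.00014). Every Gpt2 mutant array lay below every wild-type array, and Slc7a5 was lower in mutant cells at each time. Gadd45a, a growth arrest gene, differed by -0.31 ± 0.079 and the angiogenic factor gene Vegfa by -0.31 ± 0.074. In the first hour 8 of these 19 rose and 1 fell, against 7.37% and 10.7% of all genes tested. The mTORC1 inhibitor gene Ddit4 fell (-1.43 ± 0.14), and the rises included the transcription factor gene Atf3 (2.95 ± 0.095), the arginine transporter gene Slc7a1 (0.94 ± 0.058) and the transcription factor gene Cebpb (0.69 ± 0.053). At 120 against 0 minutes 6 rose and 6 fell (31.6% each), against 16.2% and 30.8% of all genes, so the share that fell was near that of all genes. At 120 against 60 minutes 3 rose and 9 fell, against 10.2% and 15.0%.

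Of 35 other ER folding, translocation and degradation genes 9 were lower and 1 higher in mutant cells, against 9.0% and 10.5% of all genes tested, with a median log2 difference of -0.031. They included the oxidase gene Ero1a (-0.64 ± 0.064), the disulfide isomerase genes Pdia5 (-0.43 ± 0.061) and Pdia3 (-0.26 ± 0.047) among the lower and the translocation gene Sec63 (0.27 ± 0.048) as the higher. Upstream, 20 tested genes of eIF2 kinases, eIF2B subunits and stress sensors had 4 lower and 2 higher in mutant cells, which is 20% and 10% of them, against 9.0% and 10.5% of all genes. Mbtps1, the protease that makes the first cut in ATF6, had 1018, 965 and 852 in mutant cells, against 1421, 1258 and 1295 in wild-type cells (log2 -0.48 ± 0.054, SE; adjusted p = 0.0003), with each mutant array below every wild-type array. Creb3l2, a membrane-bound relative of ATF6, differed by -0.40 ± 0.061. Eif2ak4, which encodes GCN2, was higher by 0.28 ± 0.086, just within the threshold (adjusted p = 0.0494 in limma). Its inhibitor Impact was higher by 0.27 ± 0.047 (adjusted p = 0.00416). The effect of leaving out arrays is not given here for these neighbouring genes. Ppp1r15b encodes the other regulatory subunit of the eIF2 phosphatase. It rose by 1.02 ± 0.057 in the first hour and fell by 0.60 ± 0.057 in the second. Unlike Ppp1r15a, it ended above its start in both genotypes. It had 979, 1997 and 1267 in mutant cells, against 1069, 2177 and 1479 in wild-type cells. Of the other 12 tested cytosolic synthetase and complex genes, 1 was higher (Aimp2, 0.16 ± 0.049, adjusted p = 0.0465) and none lower in mutant cells in limma. At an unadjusted p under 0.05 in limma 4 were lower and 2 higher, against 1632 and 2031 of 10916 genes tested. The median log2 difference of the 12 was 0.0094, against -0.13 for the 9 synthetases above, and that gap was not tested.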

How the data were processed

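Intensities per probe set of 6 one-colour Affymetrix arrays were used as the authors deposited them. They were summarised with PLIER in Affymetrix Power Tools 1.14.3.1, per the submitters' processing notes, and background correction and scaling between arrays are not given in the sources used here. Some probe sets named with _x or _s may also detect related transcripts, which could blur a gene's value. Of 45101 probe sets, 34945 were paired with 1 gene, 932 with several and 9160 with none, and 34741 matched RefSeq (GRCm38.p6), which gave names and promoter windows. Values were used as log2(intensity + 16), which compresses differences at low intensity, without further scaling.

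The brightest probe set on average stood for a gene, and 10916 of 18193 genes reached the 40th percentile of gene means. limma 3.58.1 in R 4.3.3 fitted genotype and time as additive terms with a trend in the shrinkage, on 2 residual degrees of freedom plus 7.74 from shrinkage. With 1 array per genotype and time, the residual is how far the gap between genotypes varied over the times. A real difference in time course would enter it as noise. Tests were two-sided, with Benjamini-Hochberg adjustment over all genes tested and a threshold of 0.05. Time point pairs the arrays of the genotypes, from the labels. Deviations from the genotype mean correlated between genotypes at Pearson's r of 0.911 at 0, 0.757 at 60 and 0.871 at 120 minutes across genes, which are not independent and share the time response. The fit code was run on simulated data with independent noise and set effects, which checks the code and not the differences reported here.

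All genes of the module were named, and from each wider list up to 4 tested genes, called genes before others and then by size of difference. For a called gene, further probe sets are given if their sign was opposite or their difference below 50%. The genes and lists were chosen with earlier results of these data known, and the 5 motifs and the promoters printed after the values were seen. Alternatives were offsets of 1 and 64, no filter or a 60th percentile filter, all probe sets averaged or fitted, quantile normalization, centring on the median, no trend, no replicate block, and each array left out.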

Additional observations from a re-analysis of the deposited data

Results flagged for a closer look

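For 3 genes both later arrays moved one way from 0 minutes in mutant cells and the other way in wild-type cells. The difference was not tested, since each genotype has 1 array per time. For Dnajc3 the mutant minus wild-type gap in log2 change was 0.435 at 60 and 0.191 at 120 minutes, with mutant changes of 0.36 and 0.17 and wild-type changes of -0.078 and -0.024. Its intensities were 375, 485 and 423 in mutant cells, against 533, 504 and 524 in wild-type cells at 0, 60 and 120 minutes, so the mutant 0 minute array stands lowest. The next brightest Dnajc3 probe set was above its 0 minute level at both later times in each genotype, with 335, 360.3 and 352 in mutant cells, against 358, 443 and 456 in wild-type cells.

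For Aldh18a1 the gap was -0.0853 at 60 and -0.335 at 120 minutes. Its intensities were 1019.8, 971 and 866 in mutant cells, against 951, 962 and 1023 in wild-type cells. The other 4 Aldh18a1 probe sets were also below their 0 minute level at both later times in mutant cells, but none was above it at both in wild-type cells. The brightest of them had 451, 431 and 400.0 in mutant cells, against 438, 423 and 459 in wild-type cells. For Eprs, the synthetase for glutamate and proline, the gap was -0.123 at 60 and -0.122 at 120 minutes, from intensities of 1620.4, 1551 and 1578 in mutant cells, against 1679, 1752 and 1781 in wild-type cells. All its changes were under 0.1 on the log2 scale. The next brightest Eprs probe set did not show opposite directions: it was above its 0 minute level at both later times in each genotype, with 1275, 1402 and 1341 in mutant cells, against 1425, 1439 and 1542 in wild-type cells.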

How the results depend on the processing

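Without the replicate block, the fit that drops the pairing by time or genotype, the 20 genes lower in mutant cells became 1 (Cth) and the 2 higher became 0. Without it the 6 risers and 3 fallers at 60 against 0 minutes became 2 and 0, the 7 risers at 120 against 0 minutes 1, and the 11 fallers at 120 against 60 minutes 7, while 9 of the 12 fallers at 120 against 0 minutes kept their call. Without the shrinkage trend 12 genes were lower and 0 higher in mutant cells, and 1 fell at 60 against 0 minutes. Genes higher in mutant cells numbered 1 with no level filter and 0 with all probe sets averaged or fitted. With probe sets averaged, 4 rose at 120 against 0 and 1 at 120 against 60 minutes, where Pdia6 rose at 120 against 0 minutes by log2 0.22, against -0.071 at the probe set used. Averaging also lost the genotype calls of Atf4, Ddit3, Psat1, Cars, Hspa5 and Edem1, the 60 minute call of Pdia4, the 120 against 0 minute calls of Asns, Nars, Wars, Hyou1 and Pdia4, and the 120 against 60 minute call of Vldlr. Centring each array gave 12 risers at 120 against 0 minutes and 4 at 120 against 60, where quantile normalization also gave 4. With each array left out in turn, genes lower in mutant cells numbered 11 to 15 and higher 0. Risers and fallers numbered 5 to 7 and 1 to 3 at 60 against 0 minutes, 3 to 6 and 11 to 13 at 120 against 0, and 0 to 1 and 9 to 10 at 120 against 60. Omitting the mutant or the wild-type array of a time gives the same genotype difference, so these are not 6 separate checks. Of all genes, 2124 passed for genotype, but 1409 without trend, 100 without block and 1372 to 1387 without an array of 0 or 60 minutes. Without block 587, against 1978, passed at 60 against 0 minutes, 2781 against 5136 at 120 against 0, and 1004 against 2753 at 120 against 60. Without a mutant array of 0 or 60 minutes 1141 and 1154 passed at 60 against 0 minutes, and without the wild-type 0 minute array 1189. The offset changed 1 call among those counted, that of Vldlr at 120 against 60 minutes, lost at 64. The causes of these shifts were not tested. With 1 array per genotype and time, small differences are limited by array noise.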

Other observations

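Mitochondrial tRNA synthetases charge tRNAs inside the organelle. Of 16 tested, 4 (25%) fell and none rose at 60 against 0 minutes in limma, against 10.7% and 7.37% of all genes tested. At an unadjusted p under 0.05 in limma 7 were lower and 1 higher, against 2395 and 1144 of 10916 genes tested. The median log2 difference of the 16 was -0.19, against -0.071 over all genes tested. The 4 that fell were Hars2 (-0.55 ± 0.085), Pars2 (-0.50 ± 0.11), Vars2 (-0.39 ± 0.11) and Lars2 (-0.34 ± 0.086). By 120 minutes 6 were lower and 2 higher (37.5% and 12.5%), near the 30.8% and 16.2% of all genes. Lars2 had 301, 255 and 180.0 in mutant cells, against 314, 226 and 158 in wild-type cells at 0, 60 and 120 minutes, a decline in both genotypes (log2 -0.81 ± 0.086, SE; adjusted p = 4.54e-05). Mars2, 1 of the 2 higher, had 28, 51.8 and 73 in mutant cells, against 25.6, 33.4 and 76.8 in wild-type cells (log2 1.09 ± 0.15, SE). Both its 0 minute arrays and its wild-type 60 minute array lay below the level filter of 39.8. It passed that filter through its later arrays, so its call is no independent support for a rise. For genotype 1 passed, Tars2, higher by 0.24 ± 0.074 (adjusted p = 0.0487 in limma). None was lower, against 10.5% higher and 9.0% lower of all genes tested. At an unadjusted p under 0.05 in limma 2 were lower and 1 higher, against 1632 and 2031 of 10916 genes tested.

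Of 10 mitochondrial chaperones and proteases 4 fell and 1 rose at 120 against 0 minutes (40% and 10%), near the 30.8% and 16.2% of all genes. Clpx, a subunit of the mitochondrial Clp protease, differed by -0.35 ± 0.071, the Lon protease gene Lonp1 by -0.26 ± 0.061, and the chaperone genes Trap1 and Dnaja3 by -0.24 ± 0.064 and -0.21 ± 0.066. For genotype 1 was higher, Clpp (0.18 ± 0.05), and none lower in limma, against 10.5% and 9.0% of all genes tested. At an unadjusted p under 0.05 in limma 3 were lower and 2 higher, against 1632 and 2031 of 10916 genes tested.

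Of the 12 other cytosolic synthetase and complex genes, 4 rose and 3 fell at 120 against 0 minutes (33.3% and 25%, against 16.2% and 30.8% of all genes), among them Aimp2 (0.45 ± 0.06), Rars (0.41 ± 0.054) and Iars (0.23 ± 0.065) higher and Qars (-0.29 ± 0.067) lower. Of the 20 upstream genes 7 rose and 5 fell (35% and 25%, against 16.2% and 30.8% of all genes). Eif2ak3, which encodes PERK, differed by -0.67 ± 0.07, Eif2ak4 by 0.60 ± 0.10, Impact by -0.56 ± 0.058 and the eIF2B subunit gene Eif2b3 by 0.46 ± 0.072. Of the 35 other ER genes 6 rose and 5 fell (17.1% and 14.3%, against 16.2% and 30.8% of all genes), led by the vesicle coat gene Sec24d (0.54 ± 0.057) and Pdia3 (-0.45 ± 0.057).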
